A study of Ovis aries and Bos taurus with 10 samples.

Results

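NLRP5, OOEP, KPNA7, MOS, POU5F1 and UCHL1 are transcripts that the egg makes and stores before fertilization, or that have long served as marks of germ cells. They were followed here on the Affymetrix Bovine Genome Array by taking every probe set whose chip annotation gives that symbol alone. Each gene had 1 probe set, so 6 probe sets of 24016 stood for 6 genes of 9155 with a symbol. All 10 arrays were used, with 1 array for each condition and no replicate.

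A growing oocyte transcribes far more than it uses at once and stores the surplus, and the early embryo lives on this stock until its own genome is switched on. Genes whose maternal product the embryo cannot do without are called maternal effect genes. Granulosa cells (GC), the somatic cells that surround the oocyte, are not known for this program, so a comparison of the 2 compartments shows how far each transcript was a feature of the oocyte in these libraries.

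The study cut oocytes and GC out of frozen sections of newborn lamb ovaries (less than 1 day old) by laser capture microdissection (LCM), which lifts chosen cells off a slide with a laser. The 6 LCM arrays hold oocytes of primordial (PDO), primary (PMO) and secondary follicles (SECO) and GC of the same stages (PDG, PMG and SECG), all untreated. Each LCM array carried RNA pooled from 2 animals at the primordial and secondary stages and from 4 at the primary stage, after double amplification and Arcturus biotin turbo labelling (P3). The other 4 arrays hold RNA of whole fetal ovaries. A bovine ovary at 8 months post coitum and an ovine ovary at 132 days post coitum were labelled by the standard Affymetrix protocol with a single amplification (P1), and the ovine RNA was also labelled after double amplification by the Affymetrix method (P2) and by P3.

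Values are MAS 5.0 signals on a linear scale, which the authors brought to a trimmed mean of 100 on every array. A probe set counted as detected when it was among the brightest of its array, up to the share of present calls given for that array by the study. The lowest detected signal lay between 45.8 and 74.2 on the LCM arrays and between 28.9 and 44.7 on the fetal ovary arrays. Differences are on the scale of log2(signal + 20), which understates the change of dim transcripts. Signals of different probe sets were not set against each other.

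The arrays were first checked against their labels. Of 16 oocyte markers 8 were on the array, and their summed signal was 6897 on PDO and 7539 on PMO but 2496 on SECO, the lowest of the 6 LCM arrays. GC arrays carried 2873, 5085 and 3222 in the order of the stages, with 6 of the 8 markers detected on each. The egg coat genes ZP2, ZP3 and ZP4 together gave 5716, 5992 and 1591 on the oocyte arrays of the 3 stages, and 2032, 4073 and 2713 on the GC arrays. Oocyte markers were thus detected in the GC libraries, and the library labelled SECO gave a lower sum than the GC library of its own stage, 2496 against 3222. The list was split at that stage, since ZP2, ZP4, KIT and GDF9 were lower on SECO than on SECG and the other 4 higher. Those 4 were MAEL, with 407 against 57.9, ZP3, with 751 against 683, SYCP3, with 69.6 against 28.2, and BMP15, which was under the detection limit on both. SECO also stood apart by a summed signal of 4460 for 4 red blood cell genes, against 67.8 to 796 on the other LCM arrays, and by a 5′ GAPDH control signal of 40.5 against 241 to 713. Of 14 GC markers 11 were on the array and summed to 574, 773 and 1282 on the oocyte arrays and to 1067, 1837 and 3621 on the GC arrays, while AMH, FOXL2, KITLG and FSHR were detected on no LCM array. In pooled cells of this kind, fewer cells of a type and less RNA per cell cannot be told apart. The members' oocyte minus GC differences of the fit are given with and without SECO. Counts over all 3 stages, and the values of other genes, are given with it only.

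All 6 transcripts were detected on all 10 arrays, which makes 60 of 60 readings. Among all probe sets 19.3% were detected on all 10 arrays, and of those detected on any LCM array 42.2% were detected on all 6. Signals under 100 were seen in 4 readings, NLRP5 (38.5) and POU5F1 (85.2) with bovine RNA and MOS on SECO (80.4) and PDG (89.4). The NLRP5 reading with bovine RNA lay under the median signal of that array, 40.9. None of the 6 was therefore confined to the oocyte arrays.

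NLRP5, also called MATER, is a cytoplasmic protein of the subcortical maternal complex, which the embryo needs to get past its earliest cleavages. The study designed a primer pair for quantitative PCR of this transcript, and the pair is shown because it is the designed sequence at hand for a member. Both primers are written 5′ to 3′ with no base singled out, and the PCR values are not analysed here.
NLRP5 up: gctggaggcgtgtggactg
NLRP5 down: ggtctgtagattagaggtgggatgc
The NLRP5 signal was 861 on PDO, 401 on PMO and 297 on SECO, and 184 on PDG, 596 on PMG and 254 on SECG. PDO was the highest and PDG the lowest of the 6, a ratio of 4.67, but PMG was brighter than PMO, so the compartments overlapped. The oocyte minus GC difference was 2.11 at the primordial stage, -0.55 at the primary stage and 0.21 at the secondary stage. Only 0.172% of the 11642 probe sets detected on at least 1 LCM array had a larger difference at the primordial stage. The 3 stages together gave 0.59 ± 0.51 (SE, limma, n = 3 arrays per compartment, adjusted p = 0.684). Without the primordial stage the difference was -0.17, so the excess in oocytes rested on PDO and PDG.

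OOEP is the partner of NLRP5 in the subcortical maternal complex. Its signal was 438 on PDO, 559 on PMO and 432 on SECO, against 245 on PDG, 397 on PMG and 261 on SECG. Every oocyte array lay above every GC array, and the primary follicle was the highest stage in both compartments. The difference was 0.79, 0.47 and 0.68 in the order of the stages. The fit gave 0.65 ± 0.30 (limma adjusted p = 0.468), a ratio of 1.57. Its residual SD of 0.113 was small, with only 6.85% of probe sets below it, and SECO did not stand apart for this transcript.

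KPNA7 is an importin alpha of oocytes and early embryos that carries proteins into the nucleus. The probe set gave 1602 on PDO, 1378 on PMO and 374 on SECO, and 633 on PDG, 698 on PMG and 802 on SECG. PDO and PMO were brighter than any GC array and SECO was dimmer than all of them. The difference was accordingly 1.31 and 0.96 at the first 2 stages and -1.06 at the secondary stage. Over the 3 stages it was 0.40 ± 0.49 (limma adjusted p = 0.777). Without SECO, which takes the secondary stage out of this comparison, it was 1.14 (limma adjusted p = 0.406).

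MOS is the kinase that switches on the MAP kinase pathway in the maturing oocyte and holds the mature egg in metaphase arrest. The MOS signal was 335 on PDO, 422 on PMO and 80.4 on SECO, and 89.4 on PDG, 353 on PMG and 221 on SECG. The dimmest reading came from an oocyte array and PMG lay close to PMO, so that the compartments overlapped widely. Differences of 1.70, 0.24 and -1.27 were found in the order of the stages. The fit gave 0.23 ± 0.53 (limma adjusted p = 0.899), and 0.97 without SECO (limma adjusted p = 0.453). Without the primordial stage it was -0.51.

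POU5F1 (OCT4) is the transcription factor of pluripotent cells that the germ line keeps and the oocyte passes on to the embryo. It gave 243 on PDO, 417 on PMO and 217 on SECO, and 214 on PDG, 139.8 on PMG and 159.6 on SECG. All oocyte arrays lay above all GC arrays, but SECO exceeded PDG only narrowly, and PMO alone stood well clear. The difference was 0.17 at the primordial, 1.45 at the primary and 0.40 at the secondary stage, or 0.67 ± 0.36 in the fit (limma adjusted p = 0.522). Without the primary stage it was 0.29.

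UCHL1 (PGP9.5) is a ubiquitin hydrolase of neurons and germ cells that is widely used to stain oocytes. Its probe set gave 2664 on PDO, 2612 on PMO and 1844 on SECO, and 1368 on PDG, 1519 on PMG and 1350.4 on SECG. Oocyte and GC arrays did not overlap, and the 3 GC arrays lay close together. The difference was 0.95, 0.77 and 0.44 in the order of the stages, and 0.72 ± 0.31 in the fit, with a 95% interval of 0.0041 to 1.44. Its unadjusted limma p was 0.049, the lowest of the 6, and its adjusted p was 0.445. Markers of neurons, where UCHL1 is also made, summed to 492 to 972 on the oocyte arrays and to 878 to 1813 on the GC arrays. They were higher in GC at the primordial and primary stages and higher on SECO (972) than on SECG (878), and SNAP25 made up most of the sum on the GC arrays. Their part in the UCHL1 signal was not tested. Of the 7 on the array, GAP43, NEFM and SYT1 were detected on no LCM array.

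**Figure D1:**
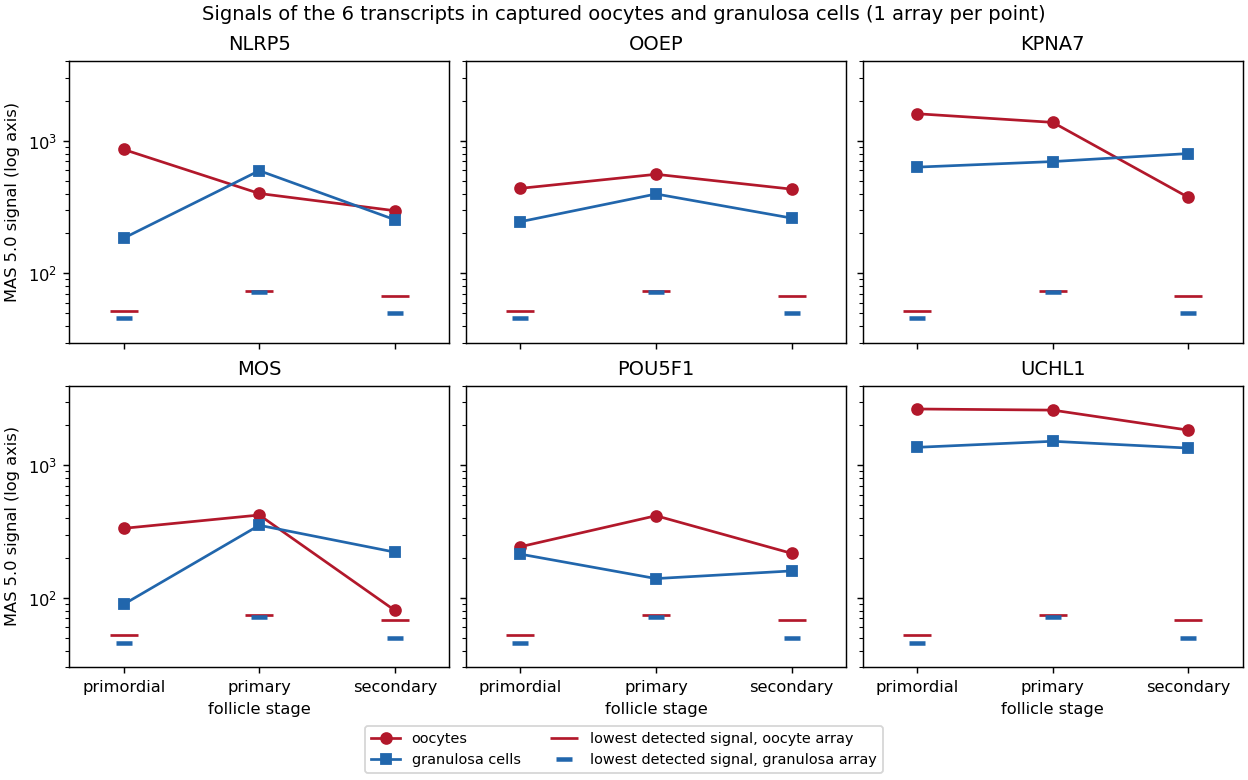
MAS 5.0 signal (log axis) of each transcript against follicle stage, with oocytes as circles, GC as squares and the lowest detected signal of each array as a dash. OOEP, POU5F1 and UCHL1 were brighter in oocytes at all 3 stages, while the oocyte line of KPNA7 and MOS crossed below that of GC at the secondary stage, where SECO gave 374 and 80.4.

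Over the members together, the oocyte minus GC difference was above 0 for 6 of 6 transcripts, against 51.4% of all probe sets tested, with a median of 0.62 against 0.017. Without the primordial stage NLRP5, KPNA7 and MOS turned negative, KPNA7 to -0.049. Without SECO, and so without the secondary stage, the differences were 0.78 for NLRP5, 0.63 for OOEP and 1.14 for KPNA7. They were 0.97 for MOS, 0.81 for POU5F1 and 0.86 for UCHL1 in the same fit. OOEP, POU5F1 and UCHL1, 3 of 6, were brighter in oocytes at all 3 stages, as were 17.7% of all probe sets. The same 3 had all oocyte arrays above all GC arrays, against a background of 7.28%. KPNA7 and MOS were brighter in oocytes at the primordial and primary stages and in GC at the secondary stage, a pattern of 12.6% of probe sets. No member passed an adjusted p of 0.05, and neither did any of the 11642 probe sets (0%). At an unadjusted p under 0.05 limma found 1295 probe sets (11.1%), of which UCHL1 was the only member.

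At the primordial stage all 6 were higher on PDO than on PDG (background 49.6%). NLRP5, MOS and KPNA7, 3 of 6, were at least 2-fold higher on PDO than on PDG, against 7.71% of probe sets. Markers of other cell types differed between these arrays too, with summed signals of 18053 on PDO and 53425 on PDG for stroma, 583 and 2429 for smooth muscle and 1026 and 2683 for endothelium. PDG had the highest of the 6 LCM arrays for each of these lists, and their part in the members' differences was not tested. At the primary stage POU5F1 alone was at least 2-fold higher in oocytes, against 11%. At the secondary stage this held for 0 of 6 (background 10.1%), whereas KPNA7 and MOS were at least 2-fold lower on SECO than on SECG, against 8.75%. After quantile normalization this held for MOS alone, with KPNA7 at -0.96. Each of these counts compares 1 array with 1 array and carries no replicate error.

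**Figure D2:**
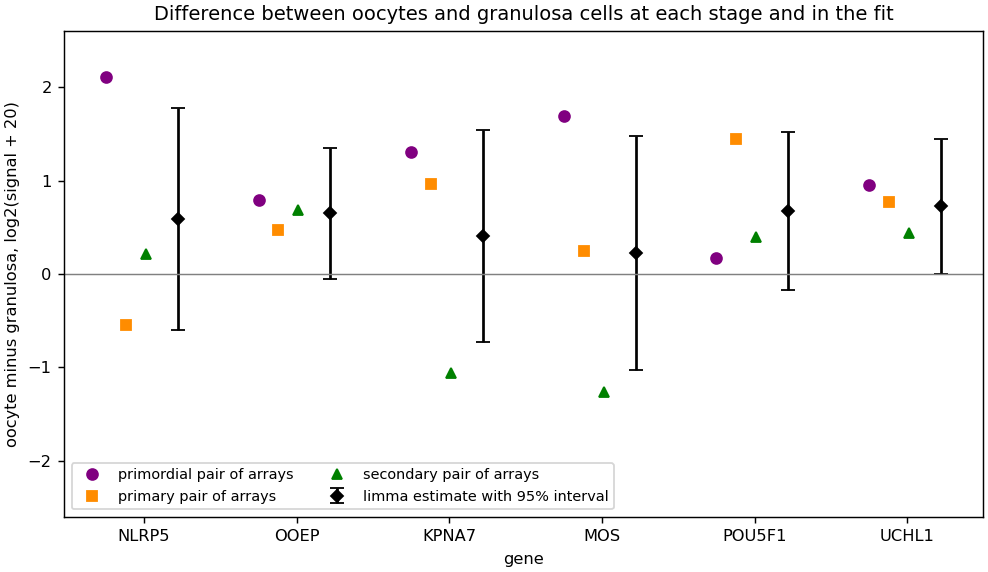
Oocyte minus GC difference in log2(signal + 20) for each transcript, with the 3 stage pairs as coloured points and the limma estimate with its 95% interval in black. The stage pairs of OOEP and UCHL1 lay close together, those of NLRP5, KPNA7 and MOS fell on both sides of 0, and only the interval of UCHL1 kept above 0.

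The members thus differed in how steady their oocyte minus GC difference was between stages. The residual SD measures this, since the fit takes out any shift that both compartments of a stage share. The residual SD was 0.968 for NLRP5, 0.905 for KPNA7 and 1.05 for MOS, and 93.5% to 96.8% of probe sets had a smaller one. It was 0.483 for POU5F1 and 0.182 for UCHL1, where the median of all probe sets was 0.384. Over the 6 LCM arrays the correlations of the 15 pairs of members ranged from 0.061 for NLRP5 with POU5F1 to 0.852 for OOEP with UCHL1, and KPNA7 and MOS correlated at 0.806. These coefficients describe 6 arrays that share compartments, stages and labelling.

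The stages were compared next within the oocytes. NLRP5, KPNA7 and UCHL1, 3 of 6, had successively lower signals on PDO, PMO and SECO, a pattern of 16.3% of probe sets, although after quantile normalization UCHL1 was 0.13 higher on PMO than on PDO. SECO was at least 2-fold below PDO for 3 of 6 (background 10.1%), with differences of -2.04 for KPNA7, -1.82 for MOS and -1.48 for NLRP5. All 6 were lower on SECO than on PDO, where 55.1% of all probe sets were higher, except that OOEP turned to 0.042 after quantile normalization. The other members differed less, by -0.53 for UCHL1, -0.15 for POU5F1 and -0.02 for OOEP. From PDO to PMO, which does not involve SECO, NLRP5 was lower by -1.07 and POU5F1 higher by 0.73, and the rest lay between -0.21 and 0.34. NLRP5 alone, 1 of 6, was at least 2-fold lower on PMO, against 7.24% of probe sets, and 0 were after quantile normalization.

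Oocyte markers were divided between SECO and PDO, with 5 of 8 lower on SECO and 3 higher. On SECO 4 of the 8 markers, ZP2, ZP3, ZP4 and KIT, were at least 2-fold below PDO, with differences of -1.97, -1.88, -1.54 and -1.35. The median difference was -0.98 for the markers and -1.001 for the members, against 0.10 for all probe sets. GDF9 was also lower (-0.62), whereas BMP15 (1.25), SYCP3 (1.03) and MAEL (0.46) were higher on SECO. BMP15 was under the detection limit on both arrays and SYCP3 on PDO. The part of the SECO library's lower marker sum in the members' lower signals was not tested.

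**Figure D3:**
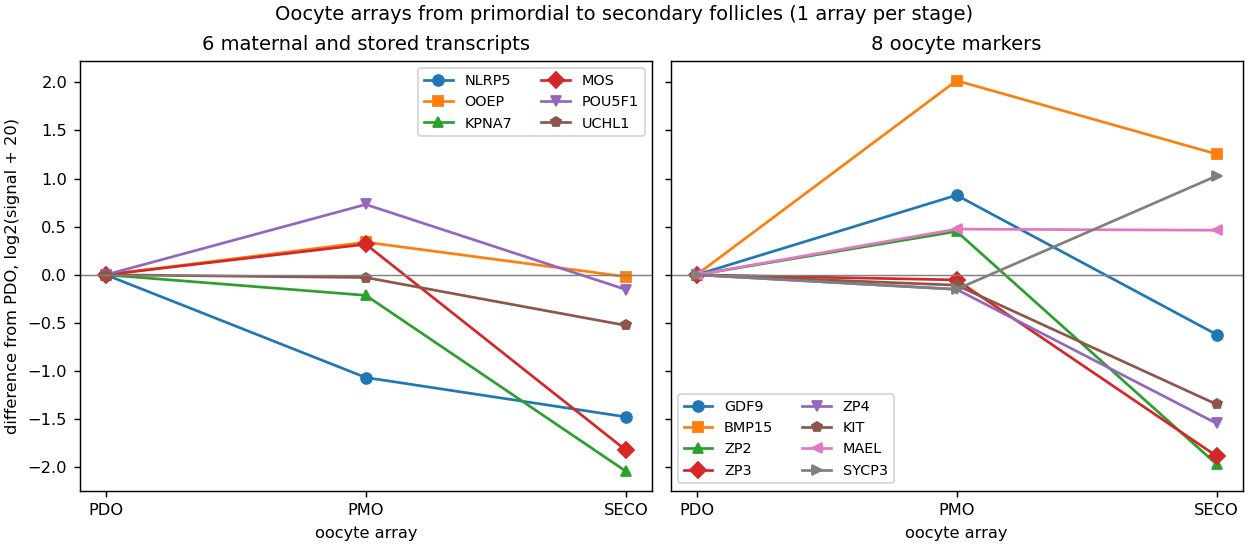
Difference from PDO in log2(signal + 20) on the 3 oocyte arrays, for the 6 transcripts (left) and for 8 oocyte markers (right), with 1 array per point. KPNA7, MOS and NLRP5 ended between -2.04 and -1.48 on SECO, beside ZP2, ZP3, ZP4 and KIT at -1.97 to -1.35, while OOEP and POU5F1 ended near 0. BMP15 and SYCP3 were each detected on a single oocyte array.

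**Figure D4:**
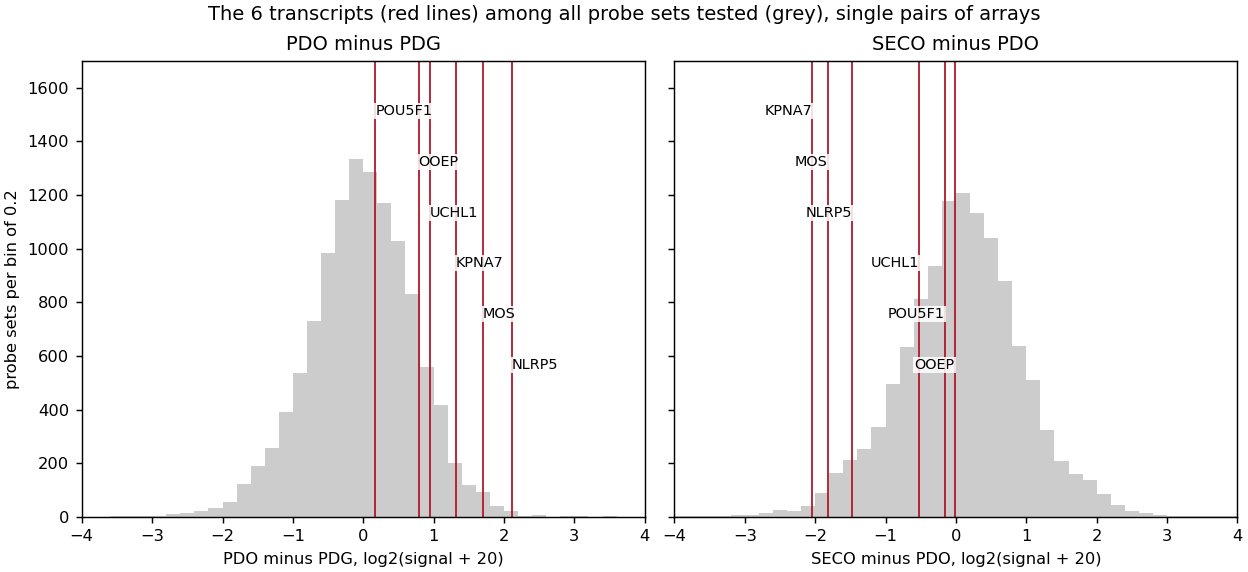
Distribution of the differences of the 11642 probe sets (grey bars, probe sets per bin of 0.2 log2 units) for PDO minus PDG (left) and SECO minus PDO (right), with the 6 transcripts as red lines. All 6 lay above 0 on the left, up to 2.11 for NLRP5, and all 6 lay below 0 on the right, down to -2.04 for KPNA7, with OOEP at -0.02 (0.042 after quantile normalization).

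In GC the stages gave another picture. PMG was at least 2-fold above PDG for MOS (1.77) and NLRP5 (1.59), 2 of 6 against 8.41% of probe sets, and OOEP was higher by 0.65. The egg coat genes were brighter on PMG than on PDG as well, with a summed signal of 4073 against 2032. Between SECG and PDG only MOS differed by 2-fold, with 1.14 (1 of 6, background 10.3%), and 0 did with an added constant of 50. POU5F1 went the other way, with -0.55 on PMG and -0.38 on SECG. KPNA7 and UCHL1 stayed within -0.02 to 0.33 of PDG. The part of oocyte transcripts in the GC libraries in these values was not tested.

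The fit over both compartments called no member between stages. The secondary minus primordial difference was -0.85 ± 0.59 for KPNA7 (limma adjusted p = 0.614) and -0.53 ± 0.62 for NLRP5, and the other 4 lay between -0.34 and 0.03. Without SECO the KPNA7 difference turned to 0.24 and that of MOS from -0.34 to 0.78. For primary minus primordial MOS had the widest difference, 1.04 ± 0.65 (limma adjusted p = 0.795), and the rest lay between -0.04 and 0.50. The background was 0% of probe sets called in both contrasts by limma, with 1325 (11.4%) and 762 (6.55%) at an unadjusted p under 0.05 and none of these a member.

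The fetal ovaries allowed the members to be read without microdissection. With ovine RNA labelled by P1, the signal was 104.2 for NLRP5, 279.7 for OOEP, 363.3 for KPNA7, 197.7 for MOS, 232.3 for POU5F1 and 1590.8 for UCHL1. With bovine RNA it was 38.5, 146.1, 141.2, 309, 85.2 and 831.5 in the same order. Ovine signals were thus higher for 5 of 6, against 48.5% of the 14838 probe sets detected on either array, although the probes were designed on bovine sequence. POU5F1 (1.26), KPNA7 (1.25) and NLRP5 (1.09), 3 of 6, were at least 2-fold higher, against 12.3%. With an added constant of 50 NLRP5 was at 0.80 and 2 of 6 remained past 2-fold. UCHL1 was higher by 0.92 and OOEP by 0.85, and only MOS was brighter with bovine RNA, at -0.60. The summed signal of ZP2, ZP3 and ZP4 was 5725 with ovine and 552.6 with bovine RNA. Species, age of the fetus and oocyte content cannot be told apart with 1 ovary each.

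Labelling moved the members unequally. From P1 to P3 the ovine signal of NLRP5 went from 104.2 to 342.1 and that of KPNA7 from 363.3 to 832.5, differences of 1.54 and 1.15. These were 2 of 6 at least 2-fold higher, against 14.2% of the 12755 probe sets detected on either array. MOS went from 197.7 to 292.8 (0.52), POU5F1 from 232.3 to 266.1 (0.18) and UCHL1 from 1590.8 to 1805.9 (0.18, but -0.27 after quantile normalization). OOEP was slightly lower, with 237.7 after 279.7 (-0.22). P2 lay between the other 2 protocols for NLRP5 (208.1) and KPNA7 (594.4), at 0.88 and 0.68 above P1. It gave 266.8 for OOEP, 194 for MOS, 147.6 for POU5F1 and 1460.7 for UCHL1, all below P1, except that MOS turned to 0.042 above it after quantile normalization. The median of all probe sets was -0.22 for P3 and -0.09 for P2 against P1. No member was 2-fold apart between P2 and P1, against 12.9% of probe sets higher and 22.9% lower. All LCM arrays were labelled by P3. Whether this protocol acted alike on the members in oocyte and GC libraries was not tested.

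**Figure D5:**
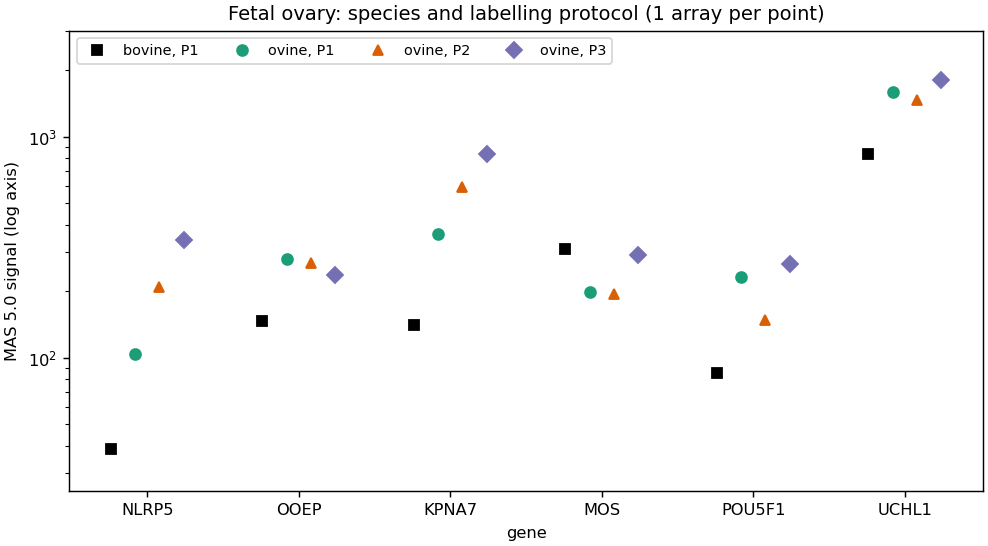
MAS 5.0 signal (log axis) of the 6 transcripts in whole fetal ovaries, with 1 array per point. Bovine RNA (squares) gave the lowest signal for each gene but MOS, and NLRP5 and KPNA7 were brighter at each step from P1 to P2 and P3, from 104.2 to 342.1 and from 363.3 to 832.5.

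The neighbours of each member in its pathway were read from lists. Of 27 other maternal effect genes 10 were on the array, and the rest, among them TLE6, ZAR1 and DPPA3, could not be read here. In oocytes 1 of the 10 (background 17.7%) was brighter at all 3 stages, the cell adhesion gene CDH1. It gave 60.2, 100.5 and 73.6 in oocytes, with no detection in GC. In GC 1 was (background 17.1%), the chromatin organizer CTCF (-0.33 ± 0.31). The list's median was 0.09, beside 0.62 for the members.

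Of the genes that act with MOS in meiotic arrest 13 were tested. Higher in oocytes at all 3 stages were 4 of them, against 17.7% of all probe sets. These included the phosphatase CDC25C (0.58 ± 0.31) and, in the MAP kinase chain itself, the kinases MAP2K1 (0.43 ± 0.30) and RPS6KA1 (0.50 ± 0.32). None of the 13 was higher in GC throughout (background 17.1%). AURKA and CCNB2, chosen after their values were seen, had their lowest oocyte signal on SECO. So did every member, OOEP only narrowly, and CDC25C, MAP2K1, RPS6KA3, CDK1, CCNB1 and BUB1 of the same list. RPS6KA1, MAP2K2, MAPK3, WEE1 and PLK1 of that list did not. AURKA, a spindle kinase, gave 2028, 2701 and 648 on PDO, PMO and SECO, and the cyclin CCNB2 gave 1009.6, 1265 and 239.

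Among 17 importins and partners tested 5 were higher in oocytes at all 3 stages (background 17.7%) and 2 in GC (17.1%). IPO9 (0.83 ± 0.34) and the Ran carrier NUTF2 (0.51 ± 0.31) were on the oocyte side. At the secondary stage IPO9 was under the detection limit on both arrays. IPO13, another of the 5, was detected on SECO alone among the LCM arrays, at 128. Its primordial and primary comparisons set signals under the detection limit against each other. IPO7 and IPO8, a closely related pair, were on the GC side, with -0.93 ± 0.30 and -0.78 ± 0.30. Other importin alphas beside KPNA7 were named after their values were seen. KPNA2 (0.43 ± 0.34), KPNA3 (0.17 ± 0.34) and KPNA4 (0.12 ± 0.31) had differences above 0 in the fit, but none of them kept that sign at all 3 stages. KPNA2 was detected on 1 array of each compartment, and KPNA4 on no oocyte array and on 1 GC array. KPNA1 went the other way (-0.80 ± 0.38), with 25.1, 48.4 and 59.6 in oocytes and 110.1, 109.1 and 56.5 in GC. It counted as detected on all 3 GC arrays and on no oocyte array, although SECO was slightly brighter than SECG, because the detection limit was 67.6 on SECO and 49.8 on SECG.

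For POU5F1, of 24 listed partners and pluripotency genes 6 were on the array and 4 were tested. SOX2, named although it was not tested, was detected on no LCM array. MYC and STAT3 were higher in GC at all 3 stages (background 17.1%), with -1.23 ± 0.30 and -0.26 ± 0.30. STAT3 was under the detection limit on both arrays of the primordial stage, and gave 87.5 on PMO against 91.7 on PMG. In oocytes 0 of 4 were higher throughout (17.7%).

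Of 7 relatives of UCHL1 and ubiquitin genes 3 were higher in oocytes at all 3 stages, against 17.7% of all probe sets. In GC 0 were (background 17.1%), and the list median was 0.34. UCHL3, the closest relative of UCHL1, gave 2304, 2164 and 1112 in oocytes and 1379, 1495 and 905 in GC, a difference of 0.52 ± 0.31. BAP1 (0.27 ± 0.31) and OTUB1 (0.64 ± 0.31), the latter detected on 1 array of each compartment, were the others.

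Of 20 genes that store or degrade maternal mRNA 3 were higher in oocytes throughout and 4 in GC. The mRNA-binding protein IGF2BP3 gave 419, 417 and 372 in oocytes and 168, 168 and 157 in GC, a difference of 1.20 ± 0.30 that exceeded that of any member. PAIP1, which joins the poly(A) tail to translation, followed with 0.96 ± 0.39 and the histone mRNA binder SLBP with 0.55 ± 0.31. At the primary stage SLBP was under the detection limit on both arrays. ZFP36L2, PAN2 and PABPN1, which act on mRNA decay and the poly(A) tail, were on the GC side with -0.60 ± 0.34, -0.51 ± 0.31 and -0.45 ± 0.31. In all 6 lists 0 genes passed the limma test, with adjusted p of 0.406 or more, beside 17.7% of all probe sets on the oocyte side and 17.1% on the GC side at every stage.

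Finally, the genes whose signal most resembled each member were sought over the 10 arrays by Pearson correlation of log2(signal + 20). The search covered 5957 probe sets with a single symbol. NLRP5 was nearest to METTL3 (0.952), XRCC3 (0.941) and REEP2 (0.937). OOEP was nearest to RWDD3 (0.937), DET1 (0.920) and MRPL42 (0.919), and KPNA7 to PRORP (0.984), SDHC (0.955) and HSD17B2 (0.951). MOS had the loosest neighbours, SAP130 (0.854), LSM6 (0.853) and AKT1S1 (0.847). POU5F1 was nearest to GBGT1 (0.940), NGDN (0.932) and LSM10 (0.908), and UCHL1 to PDCD5 (0.954), CHFR (0.949) and EIF3I (0.949). Among the members themselves OOEP and UCHL1 correlated at 0.871, NLRP5 and KPNA7 at 0.867 and MOS and POU5F1 at 0.052. The 10 points differ in species, tissue and labelling as well as in cell type, so these coefficients are a description.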

How the data were processed

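RNA of 10 samples was hybridized to Affymetrix Bovine Genome Arrays. The deposited values are MAS 5.0 signal intensities, extracted by the authors with GCOS at default parameters and scaled to a target of 100. Versions of GCOS and MAS 5.0 are not given in the sources used here. The chip annotation gave 1 symbol to 13292 probe sets, several to 86 and none to 10638, and 112 controls were left out. The present call percentages came from the study's supplement. Single calls were not used here.

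The 6 LCM arrays were compared with limma 3.58.1 in R 4.3.3 on log2(signal + 20), with stage and compartment as terms, over 11642 probe sets detected on at least 1 of them. For the comparison of compartments, stages stood as replicates, and for that of stages, compartments did. In both, the p-values rest on how far the oocyte minus GC difference varied between stages. A shift that both compartments of a stage share does not enter this spread. The p-values were adjusted by Benjamini-Hochberg at 0.05 (residual degrees of freedom 2, prior 5.43). Other comparisons set 1 array against 1 and carry no test. Their background is the share of probe sets detected on either array (LCM: on any of the 6) that pass 2-fold. The number of arrays limits the precision. The script was tested on simulated data, where it called 57.8% of 4-fold and 99.2% of 16-fold differences between compartments, with 9.7 false calls per run. The members' oocyte over GC ratios in the fit, at most 1.65 for UCHL1, were smaller than these. That no member was called thus does not show equal signals. Tables and figures used Python 3.11.15, pandas 2.3.3 and matplotlib 3.10.9.

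The members and the lists were chosen with earlier results of these data known. Named from each list were at most 3 genes per direction with the largest difference and 1 sign at all 3 stages, each gene by its brightest probe set, and for each member the 3 most correlated genes detected on at least 5 arrays. Alternatives were constants of 1 and 50, quantile normalization, a floor at 20, detection on 3 or more arrays or no filter at all, an intensity trend, no stage term, leaving out arrays or stages, and detection by a signal of 50 or 100 or by the brightest 30%.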

Additional observations from a re-analysis of the deposited data

Results flagged for a closer look

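For 3 of the 6 transcripts the difference between oocytes and GC changed sign between stages. NLRP5 was higher in oocytes at the primordial (2.11) and secondary stage (0.21) and lower at the primary stage (-0.55). KPNA7 was higher in oocytes at the primordial (1.31) and primary stage (0.96) and lower at the secondary stage (-1.06). MOS gave 1.70, 0.24 and -1.27 in the same order. The difference between stages was not tested, since each stage has 1 array per compartment and an interaction term leaves no residual degrees of freedom.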

How the results depend on the processing

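No member passed the limma test under any alternative (0 of 270 values, lowest adjusted p 0.225). Of the alternatives other than leaving out arrays, 131 of 132 member differences of the fit kept their sign, and so did 211 of 216 differences between single arrays. The filters, the intensity trend and, between compartments, dropping the stage term do not alter a difference of the fit. Part of the 132 values thus could not change sign. Quantile normalization turned KPNA7 between primary and primordial stage to 0.11, MOS between P2 and P1 to 0.042, UCHL1 between P3 and P1 to -0.27, between PMO and PDO to 0.13 and between SECG and PDG to 0.061, and OOEP between SECO and PDO to 0.042. It also left 1 member 2-fold apart at the secondary stage in place of 2 and 0 in place of 1 between PMO and PDO. A constant of 50 left 0 in place of 1 between SECG and PDG and 2 in place of 3 between ovine and bovine RNA. The comparisons of stages within a compartment were given alternatives only after the data were seen.

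With an intensity trend limma called 10 probe sets between compartments (1 higher in oocytes) and 67 between secondary and primordial stage (43 higher at the secondary stage), and with a constant of 50 it called 37 there (25 higher), none of them a member. Leaving out an array or a stage gave 0 to 18 calls there, 18 without PMO, PMG or the primary stage, and 0 to 0 in the other contrasts. The cause was not tested. The stage term pairs the oocyte and GC arrays of a stage. Without this pairing limma also called 0 probe sets, and the adjusted p of the members lay between 0.590 and 0.944. For the compartments, leaving out an array equals leaving out its stage.

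Leaving out arrays or stages kept the sign of 115 of 138 member differences. Some of the 138 could not change, since a difference of 2 stages is unaltered without arrays of the remaining stage. Between compartments, the same value is counted for each array of a stage and again for the stage. For oocyte minus GC, leaving out arrays or stages gave -0.17 to 1.16 for NLRP5, -0.049 to 1.14 for KPNA7 and -0.51 to 0.97 for MOS. Each was negative without the primordial stage. For secondary minus primordial it gave -1.67 to 0.61 for NLRP5, -0.072 to 0.14 for OOEP, -1.95 to 0.24 for KPNA7, -1.46 to 0.78 for MOS and -0.64 to 0.11 for POU5F1. For primary minus primordial it gave -0.88 to 1.40 for NLRP5, -0.72 to 0.64 for KPNA7, -0.060 to 2.15 for MOS, -0.49 to 0.67 for POU5F1 and -0.11 to 0.23 for UCHL1. Of 60 readings 59 were detected at a signal of 50, 56 at 100 and 58 by the brightest 30%.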
